A study of Mus musculus with 4 samples.

Results

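Bone, cartilage and tendon genes were examined in STMN1-/- mouse embryo fibroblasts (MEFs) by following 10 named genes across all 4 arrays of the study. The genes were taken by name from the array files: Runx2, Sp7, Alpl (written there as Akp2), Ibsp and Spp1 for bone, Acan (written Agc1), Comp and Hapln1 for cartilage, and Scx and Tnmd for tendon. They are 10 of the 20851 genes named on the array, and 14 of its 41174 probes, each a 60-mer, report on them. The rule that picks them uses names alone, although the list of names was drawn up with earlier results of these data known. RNA from C57BL/6 STMN1-/- MEFs, in which a neomycin cassette disrupts the gene for stathmin, was hybridised on each Agilent 2-color array together with RNA from C57BL/6 STMN1+/+ MEFs. The STMN1-/- RNA carried Cy3 on replicates 1 and 2 and Cy5 on replicates 3 and 4. The cells were grown from individual mid-gestation embryos of heterozygous parents, were kept in serum-containing medium and were discarded after early passages. Which embryo's cells or which RNA extract each array held is not given in the sources used here, so a p-value here covers the scatter from array to array, part or all of which may be technical.

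Mesenchymal cells of the embryo can become osteoblasts, chondrocytes or tendon cells, and each path is known for a set of transcription factors and the matrix made under them. Runx2 and, downstream of it, Sp7 drive osteoblast formation, Sox9 drives cartilage, and Scx marks tendon precursors. Osteoblasts then express alkaline phosphatase (Alpl), which frees phosphate for mineral, and the acidic matrix proteins Spp1 and Ibsp. Cartilage matrix is built on aggrecan (Acan), bound to hyaluronan with the help of link protein (Hapln1), while Comp ties matrix fibrils together in cartilage and tendon. Tnmd is a membrane glycoprotein of mature tendon that lies downstream of Scx.

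Alpl and Tnmd were up-regulated in STMN1-/- MEFs by 2.41 and 2.05 fold, and Spp1 by 1.48 fold. Hapln1, which was not well above background in STMN1-/- MEFs, was lower by a measured ratio of 2.27 fold, and Comp, Sp7, Acan and Scx were down-regulated by 1.21 to 1.37 fold. Runx2 was measured by 3 probes, none of which passed the test, and Ibsp was not well above background in either genotype. Thus 3 of the 9 tested genes were higher and 5 were lower at a limma adjusted p under 0.05, with 13.1% of all 15622 tested genes higher and 12.2% lower by the same test. The 5 lower calls fell to 1 or 2 when any 1 of the 4 arrays was left out, and to 1 with normexp and loess, with no filter on dim probes or with the methods' t-test, while the higher calls stayed at 3 except for 2 with normexp. In either direction 25.4% of all tested genes, and 22.3% of all tested probes, were called. The test was limma against 0 on the log2 ratio of STMN1-/- over STMN1+/+ signal, two-sided and Benjamini-Hochberg adjusted over the 27724 tested probes of the array. A gene is represented by its brightest tested probe, each SE is limma's over 4 arrays, and mean signals are geometric means over the arrays. The 9 genes are those with a probe well above background in at least 1 genotype on at least 1 array, and Hapln1 met this through STMN1+/+ MEFs alone. The median absolute log2 ratio was 0.46 over the 9 genes and 0.17 over all tested genes. Because RNA of whole cultures was measured, fewer cells of a type and less RNA per cell cannot be told apart.

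**Figure D1:**
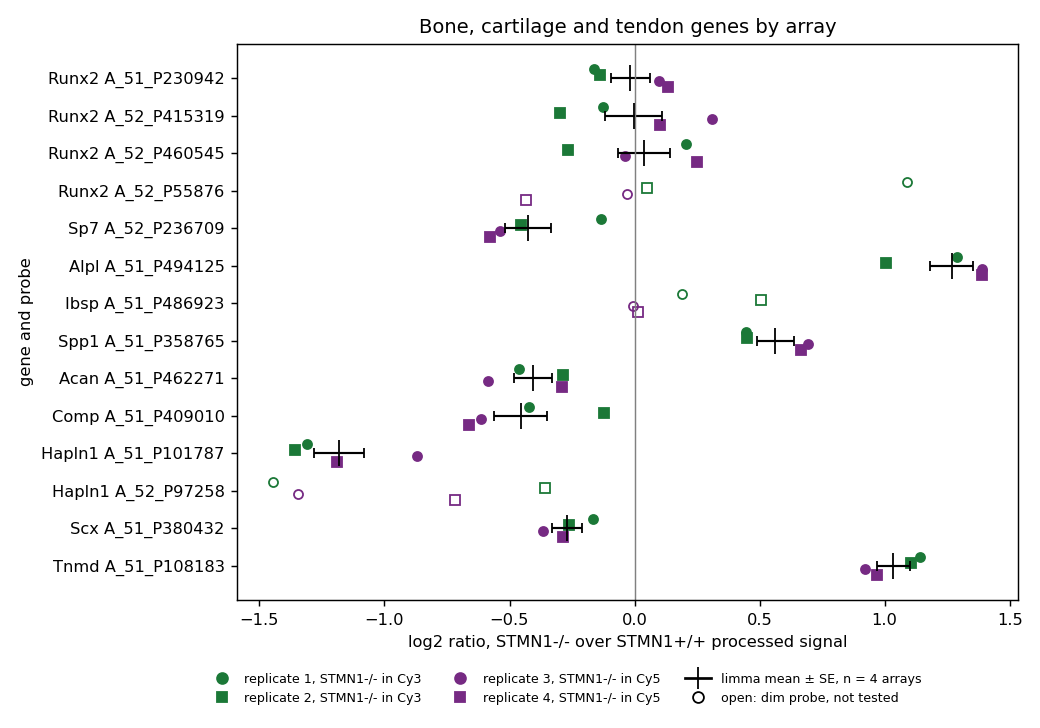
Log2 ratio of STMN1-/- over STMN1+/+ processed signal for the 14 probes of the 10 genes (y axis) on each of the 4 arrays (points, colored by the dye of the STMN1-/- RNA), with limma's mean and SE as black bars for the 11 tested probes. All 4 points of Alpl, Spp1 and Tnmd lie above 0, all 4 of Hapln1, Acan, Comp, Sp7 and Scx lie below 0, and the points of Runx2 A_51_P230942 lie on both sides of 0 by dye.

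Runx2, the master regulator of the osteoblast, did not differ detectably between genotypes. Its brightest probe, A_51_P230942 at chr17:42727803-42727862 of mouse build mm7 on the minus strand, gave signals of 8364, 8278, 9407 and 9256 in STMN1-/- MEFs on replicates 1 to 4. The STMN1+/+ signals on the same arrays were 9364, 9105, 8785 and 8439. STMN1-/- signals were thus below STMN1+/+ signals on replicates 1 and 2 and above them on replicates 3 and 4, so that the sign followed the dye. The log2 ratio was -0.02 (SE 0.08, limma adjusted p = 0.899), with a 95% interval of -0.22 to 0.18. This probe is printed 10 times on each array, and the SD of the log2 ratio between spots was 0.08 to 0.11. Probe A_52_P415319, 79 bases away, showed the same change of sign with dye, with log2 ratios of -0.13, -0.30, 0.31 and 0.10, a mean of 0.00 (SE 0.11) and a limma adjusted p of 0.987. Probe A_52_P460545, at chr17:42731714-42731773, gave 483 in STMN1-/- and 470.3 in STMN1+/+ MEFs, a log2 ratio of 0.04 (SE 0.10, limma adjusted p = 0.832).

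The last Runx2 probe lies apart from the others, and its sequence is shown because it reports another start of the gene. Probe A_52_P55876, at chr17:42937487-42937546, ends 209.684 kb from the far end of A_51_P230942. It holds the start codon of the protein form made from the distal promoter, written here in capitals after 12 bases of leader, whereas A_52_P460545 lies in the last coding part that the forms share. Both are given 5′ to 3′ as in the array files.
Runx2 A_52_P55876: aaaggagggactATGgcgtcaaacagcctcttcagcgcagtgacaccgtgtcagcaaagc
Runx2 A_52_P460545: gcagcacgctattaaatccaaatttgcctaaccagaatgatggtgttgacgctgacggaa
In neither genotype was the distal probe well above background on any array, with signals of 47.5 to 131 in STMN1-/- and 48.6 to 77.2 in STMN1+/+ MEFs. It was therefore not tested, and the genotypes cannot be compared for transcripts from the distal start.

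Sp7, the zinc finger factor (osterix) that osteoblasts require after Runx2, was down-regulated 1.34 fold. Probe A_52_P236709, at chr15:102343418-102343477 on the minus strand, gave 1357, 1316, 1235 and 1305 in STMN1-/- MEFs on replicates 1 to 4. The STMN1+/+ signals were 1489, 1803, 1794 and 1949.9. All 4 STMN1-/- signals lay below all 4 STMN1+/+ signals, and replicate 1 held the smallest difference. The log2 ratio was -0.43 (SE 0.09, limma adjusted p = 0.032). The call was kept without replicate 1 (adjusted p = 0.0259) but lost in limma without replicate 2, 3 or 4 (adjusted p = 0.105, 0.109 and 0.104).

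Alpl, the tissue-nonspecific alkaline phosphatase that marks early osteoblasts, had the largest log2 ratio of the 9 tested genes with the processed signals. Probe A_51_P494125, at chr4:137120184-137120243 on the minus strand, gave 679.5, 1065, 1069 and 1168 in STMN1-/- MEFs. It gave 278, 531, 409 and 445 in STMN1+/+ MEFs. Every STMN1-/- signal was above every STMN1+/+ signal, although both channels of replicate 1 were dimmer than those of the other arrays. The log2 ratios were 1.29, 1.00, 1.39 and 1.39, with a mean of 1.27 (SE 0.09, limma adjusted p = 0.00156). Alpl lies on the same chromosome as the disrupted gene, its probe 3.27 Mb from the nearer of the Stmn1 probes, and whether that linkage has a part in the difference was not tested. When the background was corrected by normexp and the dyes by loess, the log2 ratio of Alpl was 0.55 and limma's adjusted p was 0.0643, which ends the call and puts Alpl below Tnmd (0.80) and Spp1 (0.58).

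Spp1, osteopontin, is an acidic phosphoprotein of bone matrix that fibroblasts, macrophages and osteoclasts also secrete, and it was the brightest of these probes. Probe A_51_P358765, at chr5:103631152-103631211 on the plus strand, gave 406923, 422070.0, 448520.0 and 474703 in STMN1-/- MEFs. The STMN1+/+ signals were 299063, 309039, 277157 and 299533. The genotypes did not overlap, and the difference was larger on replicates 3 and 4, where STMN1-/- RNA carried Cy5. The log2 ratios were 0.44, 0.45, 0.69 and 0.66, with a mean of 0.56 (SE 0.07, limma adjusted p = 0.00793). The probe is printed 10 times on each array, and the SD between those spots was 0.02 to 0.05 on the log2 scale. The spread between arrays was thus wider than that between spots of 1 array (SD 0.13 over the 4 arrays).

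Ibsp, bone sialoprotein, is a late osteoblast product whose gene neighbours Spp1, their probes being 129.798 kb apart. Probe A_51_P486923, at chr5:103501295-103501354, gave 27.7, 29.1, 23.1 and 23.3 in STMN1-/- and 24.3, 20.5, 23.2 and 23.0 in STMN1+/+ MEFs. None of these signals was well above background, so Ibsp was not tested and no fold is given. Of the other acidic glycoproteins encoded in the same gene cluster, Dmp1 and Dspp were also not well above background. Mepe was measured at 676 in STMN1-/- and 632 in STMN1+/+ MEFs with no call (log2 ratio 0.10, SE 0.08, limma adjusted p = 0.410).

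**Figure D2:**
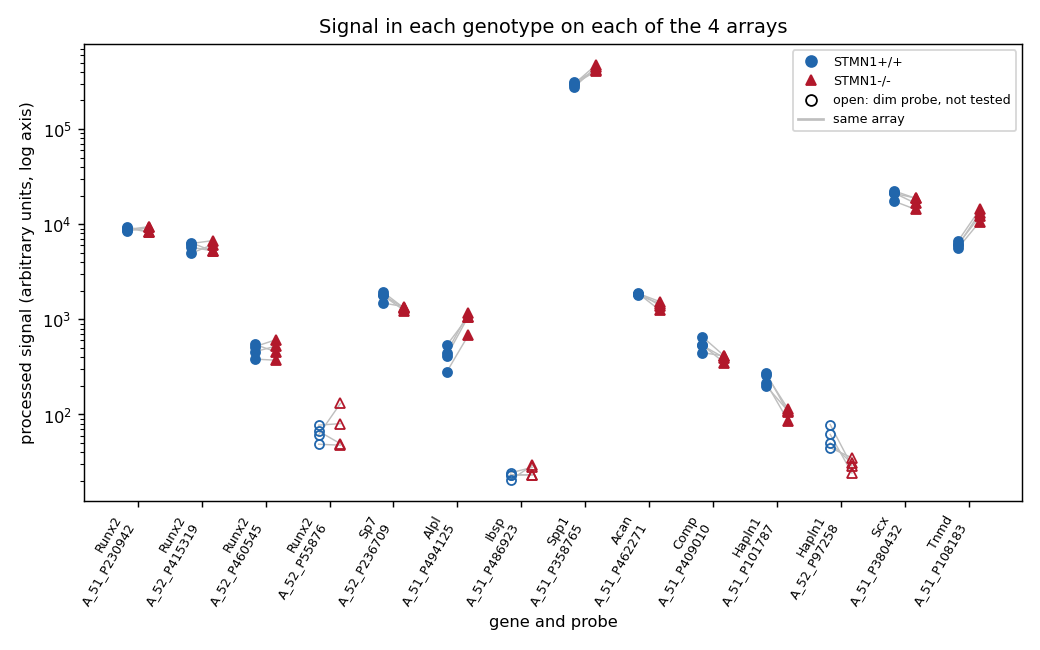
Processed signal (y axis, log scale, arbitrary units) of each of the 14 probes (x axis) in STMN1+/+ (circles) and STMN1-/- (triangles) MEFs, with a grey line joining the genotypes of 1 array and open symbols for the 3 dim probes. Spp1 lies at or above 277157 in every channel, Ibsp lies at or below 29.1, and the 4 lines of Alpl, Spp1 and Tnmd run upward. Levels of different probes are not comparable, since each probe binds its target with its own strength.

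Acan, the large chondroitin sulfate proteoglycan that lets cartilage hold water, was down-regulated 1.33 fold. Probe A_51_P462271, at chr7:74978057-74978117 on the plus strand, gave 1389, 1532, 1241 and 1464 in STMN1-/- MEFs. It gave 1914, 1867, 1865 and 1789 in STMN1+/+ MEFs. All 4 STMN1-/- signals were below the STMN1+/+ signals, and replicates 1 and 3, of opposite dye orientation, showed the larger differences. The log2 ratio was -0.41 (SE 0.08, limma adjusted p = 0.0213), but leaving out replicate 1, 2, 3 or 4 ended the call in limma (adjusted p = 0.0772, 0.0568, 0.0711 and 0.0556).

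Hapln1, link protein, locks the aggrecan core protein onto hyaluronan, and it had the lowest log2 ratio of the 9 tested genes with the processed signals. Its brighter probe, A_51_P101787 at chr13:86682433-86682492 on the plus strand, is shown because the fold rests on it alone, and it lies in coding sequence.
Hapln1 A_51_P101787: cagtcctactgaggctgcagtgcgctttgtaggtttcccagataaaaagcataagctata
It gave 214, 270.4, 199 and 261 in STMN1+/+ MEFs, well above background on all 4 arrays. In STMN1-/- MEFs it gave 86.1, 105, 109 and 115 and on none of the arrays was it well above background, so that it has only a bound there. By the rule for such probes Hapln1 was at least 2.27 fold lower in STMN1-/- MEFs (log2 ratio -1.18, SE 0.10, limma adjusted p = 0.00251). The probe entered the test only through the genotype in which it is brighter, so its p is no separate support. The value sets the mean normalised log2 signal in STMN1+/+ MEFs against the higher, on each array, of the STMN1-/- signal and the lowest signal that counted as well above background (27.9 to 31.9). As the Hapln1 signals lay above that floor, it equals the plain ratio and is no strict limit. With normexp and loess the log2 ratio shrank to -0.16 (limma adjusted p = 0.141), the smallest decrease among the 5 lower genes (Scx -0.31, Sp7 -0.27, Acan -0.24, Comp -0.19), and a stricter filter, asking for a signal clear of background in both channels of every array, removed the probe. A dimmer probe, A_52_P97258, 650.0 bases downstream, was not well above background in either genotype and was not tested, with 24.3 to 35.0 in STMN1-/- and 44.8 to 78.3 in STMN1+/+ MEFs.

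Comp, cartilage oligomeric matrix protein, belongs to the thrombospondins and was down-regulated 1.37 fold. Probe A_51_P409010 spans 134 bases of chromosome 8 (chr8:68837003-68837136, plus strand), which is longer than the probe itself, as for a probe laid over joined exons. It gave 396, 412, 351 and 414 in STMN1-/- MEFs and 531, 447, 538 and 657 in STMN1+/+ MEFs. The genotypes did not overlap, although replicate 2 differed by only -0.12 on the log2 scale against -0.42, -0.62 and -0.66 on replicates 1, 3 and 4. The mean log2 ratio was -0.46 (SE 0.11, limma adjusted p = 0.0392). The call was kept without replicate 2 (adjusted p = 0.0327) but lost in limma without replicate 1, 3 or 4 (adjusted p = 0.105, 0.123 and 0.118).

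Scx, scleraxis, the basic helix-loop-helix factor of tendon and ligament precursors, was down-regulated 1.21 fold. Probe A_51_P380432, at chr15:76541831-76541890 on the plus strand, gave 18792, 18674, 16517 and 14280.5 in STMN1-/- MEFs. It gave 21091, 22398, 21306 and 17435 in STMN1+/+ MEFs. STMN1-/- was lower on each array, but the ranges overlapped, because both channels of replicate 4 were dim. The log2 ratio was -0.27 (SE 0.06, limma adjusted p = 0.0338), and it lost the call in limma without replicate 1, 2, 3 or 4 (adjusted p = 0.0676, 0.109, 0.119 and 0.112).

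Tnmd, tenomodulin, which Scx is known to induce in tendon, moved the other way. Its probe, A_51_P108183 at chrX:128582161-128582220 on the plus strand, is shown because it is the only probe of the gene and lies in coding sequence.
Tnmd A_51_P108183: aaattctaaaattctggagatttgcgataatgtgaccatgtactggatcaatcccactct
It gave 13198, 14341, 10646 and 12077 in STMN1-/- MEFs and 5990.9, 6659, 5628 and 6161 in STMN1+/+ MEFs. Every STMN1-/- signal exceeded every STMN1+/+ signal, and all 4 log2 ratios lay close together at 1.14, 1.11, 0.92 and 0.97. The mean was 1.03 (SE 0.07, limma adjusted p = 0.00133).

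Ordered by log2 ratio, the 9 tested genes ran from Alpl (1.27) over Tnmd (1.03), Spp1 (0.56), Runx2 (-0.02), Scx (-0.27), Acan (-0.41), Sp7 (-0.43) and Comp (-0.46) to Hapln1 (-1.18). Between neighbours in this order, the 95% interval of Alpl (1.05 to 1.49) overlapped that of Tnmd (0.868 to 1.201), and those of Scx, Acan, Sp7 and Comp overlapped each other. That of Runx2 overlapped that of Scx (-0.42 to -0.12). The interval of Spp1 (0.38 to 0.75) overlapped neither that of Tnmd nor that of Runx2. That of Hapln1 (-1.43 to -0.93) lay below that of Comp (-0.73 to -0.18), but Hapln1 entered the test only through STMN1+/+ MEFs. With normexp and loess the order of these 2 genes was reversed (Hapln1 -0.16, Comp -0.19). The bone genes and the tendon genes each went both ways, whereas the cartilage genes went 1 way. Of the bone genes, Alpl and Spp1 were higher and Sp7 lower, all 3 cartilage genes were lower, and of the tendon genes Tnmd was higher and Scx lower. Of the 9 tested genes, 8 had the same sign on 4 of 4 arrays, as did 50.5% of the 14807 genes measured on every array. The signals of the genotypes did not overlap for 7 of the 9, against 26.2% of those genes. A fold of at least 2 together with a call was reached by 3 of them, Alpl, Tnmd and Hapln1, and by 3.3% of all tested genes. Hapln1 is counted here by its plain ratio, and with normexp and loess neither it nor Alpl reached this mark.

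Dye orientation moved the ratio by less than its size for every called gene, the 3 genes past 2 fold among them. The mean log2 ratio of Alpl was 1.15 on the arrays with STMN1-/- RNA in Cy3 and 1.39 on those with it in Cy5, that of Tnmd 1.12 and 0.95, and that of Hapln1 -1.33 and -1.03. Spp1 stood at 0.45 and 0.68. Both orientations of these 4 genes thus kept the direction, and the other called genes, given next, kept theirs too. Among the smaller changes, Comp stood at -0.27 and -0.64 and Sp7 at -0.29 and -0.56, while Acan (-0.37 and -0.44) and Scx (-0.21 and -0.33) differed less. For Runx2, at -0.15 and 0.12, the sign changed. Each of these means is over 2 arrays and has no test.

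The genes whose log2 ratios lay nearest over the 4 arrays were sought among 14798 other named genes, by the root mean square difference in log2. Nearest to Alpl were Mmp19 (0.04), Zcchc12 (0.07) and Lgi2 (0.08), and nearest to Tnmd were Rhox5 (0.02), Chac1 (0.03) and Sema5a (0.03). Those nearest to Spp1 were B630019K06Rik (0.02), Mitf (0.03) and Cav3 (0.03). Hapln1 was followed most closely by Gja3 (0.02), Sema3e (0.07) and Chrna1 (0.09). Sp7 lay nearest to Syde2 (0.04), Mmd (0.05) and Lman1l (0.05), Comp to Ajuba (0.03), Znrf2 (0.03) and 1700001C19Rik (0.04), and Scx to Strap (0.01), LOC624367 (0.02) and Dars (0.02). With 4 arrays and so many genes, close matches of this kind are a description of the values alone.

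Promoters were compared because Runx2 binds bone genes at a short motif and had no call itself. RefSeq (GRCm38.p6) gave 9 start sites for 7 of the 10 genes, and the 250 bases before each were searched on both strands for the RUNX core TGTGGT, which reads ACCACA on the other strand. The motif stood in 3 of the 9 windows, once each for Spp1, Hapln1 and Runx2 itself, at positions -128, -160 and -80 from the start site, whereas 14.05% of 32851 promoters of the same length held it. The SOX9 motif ACAATGG, or CCATTGT on the other strand, stood in 0 of the 9 windows and in 3.02% of all promoters. The windows with a match are shown 5′ to 3′ on the gene's strand with the match in capitals, for Spp1 at chr5:104434861-104435110 (plus), Hapln1 at chr13:89540386-89540635 (plus) and Runx2 at chr17:44814628-44814877 (minus).
Spp1: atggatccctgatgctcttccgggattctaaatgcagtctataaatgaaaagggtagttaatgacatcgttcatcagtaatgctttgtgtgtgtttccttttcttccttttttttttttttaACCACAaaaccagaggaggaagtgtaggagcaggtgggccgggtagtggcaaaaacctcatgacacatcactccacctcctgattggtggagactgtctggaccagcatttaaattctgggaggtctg
Hapln1: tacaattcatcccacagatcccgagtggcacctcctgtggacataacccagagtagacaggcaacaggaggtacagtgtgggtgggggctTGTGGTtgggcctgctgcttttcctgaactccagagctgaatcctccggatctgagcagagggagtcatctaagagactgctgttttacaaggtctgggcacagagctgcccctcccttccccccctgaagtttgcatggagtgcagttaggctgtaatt
Runx2: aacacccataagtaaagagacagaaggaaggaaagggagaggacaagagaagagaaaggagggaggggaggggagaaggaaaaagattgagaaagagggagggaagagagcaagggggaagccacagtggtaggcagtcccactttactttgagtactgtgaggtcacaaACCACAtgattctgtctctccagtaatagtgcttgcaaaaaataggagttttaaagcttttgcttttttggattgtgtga
Of these 3 genes, Spp1 was up-regulated, Hapln1 was lower and Runx2 had no call at its tested probes. The probe of the distal Runx2 start was dim and not tested. Which Runx2 start this window precedes was not examined. A match to these letters is not a measured binding site.

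Other genes of the same tissues were followed in 9 lists of regulators, signals and matrix proteins. Of 94 listed genes 91 were on the array and 82 were tested, of which 23 were higher, 17 lower and 42 without a call (limma adjusted p under 0.05). Of the 82, 48.8% were thus called, against 25.4% of all tested genes. Their median log2 ratio was 0.09, against 0.00 over all tested genes. The lists were drawn up with earlier results of these data known, so the larger share called is a description only. Sox5, Phex and Kera, among those called, entered the test only through the genotype in which they are brighter.

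Among 10 tested osteoblast regulators, 4 were higher and 3 lower. Runx1, a relative of Runx2 with a role in blood formation, was 1.47 fold higher by its brighter probe (the other, at a log2 ratio of 0.16, had no call), and Zfp521, a zinc finger protein that antagonises Runx2, was 1.39 fold higher. Dlx5, a homeobox factor that promotes osteoblast formation, was 1.99 fold lower, and the homeobox factor Msx2 was 1.46 fold lower. Of the bone signals and receptors, 3 of 11 were higher and 2 lower. The vitamin D receptor Vdr rose 1.86 fold (log2 ratio 0.89, SE 0.06) and Pth1r, the receptor for parathyroid hormone, rose 1.84 fold (log2 ratio 0.88, SE 0.06). Tnfrsf11b, osteoprotegerin, was 1.41 fold higher, while Bmp7, a bone morphogenetic protein, was 2.14 fold lower (log2 ratio -1.10, SE 0.08).

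Of 9 tested bone matrix genes, 4 were higher and 1 lower. The chains of type I collagen rose most, Col1a1 by 2.43 fold (log2 ratio 1.28, SE 0.06) and Col1a2 by 2.21 fold (log2 ratio 1.14, SE 0.16). The osteoblast proteoglycan Omd was 1.48 fold higher, and Phex, an endopeptidase of bone cells, was lower by a plain ratio of 1.75 fold, its signal being well above background in STMN1+/+ MEFs only. Phex entered the test through that genotype alone, so its count as lower is no separate support. Bglap, osteocalcin, the marker of mature osteoblasts, was at 195 in STMN1-/- and 238 in STMN1+/+ MEFs and had no call (log2 ratio -0.28, SE 0.17, limma adjusted p = 0.300). Dmp1, the osteocyte marker, was dim. Of the 10 tested genes of mineralization, 0 were higher and 3 were lower, with 13.1% of all tested genes higher. Those 3 were Smpd3 (1.90 fold, log2 ratio -0.92, SE 0.05, with 1 of its 3 probes at -0.19 and without a call), whose enzyme cleaves sphingomyelin, the pyrophosphate transporter Ank (1.49 fold, over 3 arrays) and Enpp1 (1.35 fold), which makes the mineral inhibitor pyrophosphate.

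Of 8 tested cartilage regulators, 0 were higher and 3 were lower, with 13.1% of all tested genes higher and 12.2% lower. Sox9, the defining factor, had no call at any of its 3 tested probes (brightest, 8379 and 7673, log2 ratio 0.13, SE 0.06, limma adjusted p = 0.197). Its partners Sox6 (brightest probe 1.99 fold, log2 ratio -0.99, SE 0.08) and Sox5 were lower, Sox5 only at the limit of detection, at least 2.12 fold with signals of 34.5 and 77.7, well above background on 1 STMN1+/+ array. Sox5 thus entered the test only through STMN1+/+ MEFs, and its part in the 3 lower genes is no separate support. Barx1 was 1.40 fold lower, and the other 5, Sox9 among them, had no call. In cartilage matrix, 2 of 13 genes were higher and 2 lower by their brightest probes, Col2a1 among the higher. Col2a1, the main cartilage collagen, had probes that disagreed, A_51_P317141 being 1.17 fold higher (26034 and 22290, log2 ratio 0.22, SE 0.06) and A_52_P216436 lower at a log2 ratio of -1.08 (SE 0.10, 7623 and 16111). No single direction can be given for it, and its count as higher, here and in the total of 23, rests on the brighter probe. Matn4, a matrilin, was 1.98 fold higher, the small proteoglycan Epyc 1.78 fold lower and Mia 1.48 fold lower. Col10a1, the collagen of hypertrophic cartilage, had no call (log2 ratio 0.17, SE 0.19, limma adjusted p = 0.555).

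The relatives of the cartilage genes differed among themselves. Of the proteoglycans related to Acan and the link proteins related to Hapln1, Ncan was 2.01 fold lower (log2 ratio -1.01, SE 0.07), Vcan was 1.17 fold higher and Bcan, Hapln3 and Hapln4 had no call. Of the thrombospondins related to Comp, 3 of 4 were higher. Thbs4 was 3.51 fold higher (log2 ratio 1.81, SE 0.21), Thbs2 2.17 fold (log2 ratio 1.11, SE 0.05) and Thbs3 1.59 fold. The brightest probe of Thbs1 had no call (log2 ratio 0.00, SE 0.11, limma adjusted p = 0.992), although its other 2 probes were higher at log2 ratios of 0.33 and 0.30. Comp was thus lower while 3 of its relatives were higher.

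Tendon genes other than Scx and Tnmd were mostly higher where called, with 6 of 12 higher and 2 lower. Fmod, the small proteoglycan fibromodulin, rose 3.50 fold (log2 ratio 1.81, SE 0.07), Col12a1 2.00 fold (over 3 arrays) and Dcn, decorin, 1.99 fold. Kera was higher by a plain ratio of 2.60 fold with signals of 92.5 and 35.5, well above background on 1 STMN1-/- array and on 0 STMN1+/+ arrays. Kera entered the test through STMN1-/- MEFs alone, so its count as higher is no separate support. Mkx, a homeobox factor of tendon, had no call (1098 and 1441, log2 ratio -0.39, SE 0.10, limma adjusted p = 0.0529).

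**Figure D3:**
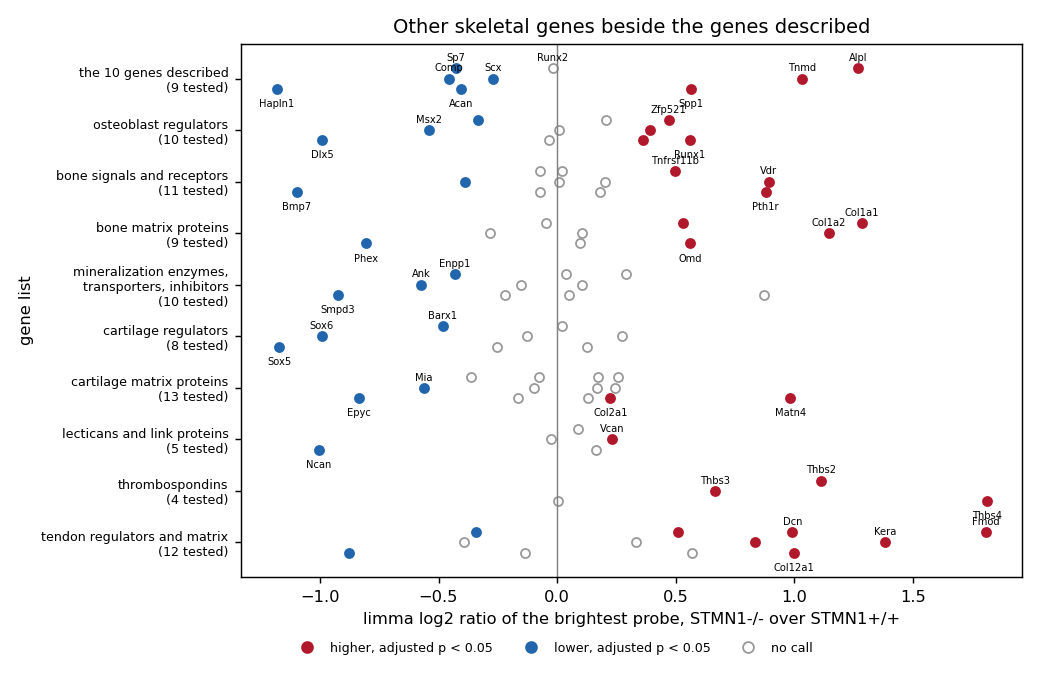
Limma log2 ratio (x axis) of the brightest probe of each tested gene in the 9 lists of other skeletal genes and, in the top row, of the 9 tested genes described. Filled points passed the test (red higher, blue lower), open points did not, and labels give up to 4 called genes with the largest absolute ratio in each list. The mineralization and cartilage regulator rows hold no red point, and the thrombospondin row holds no blue point. Those rows hold 10, 8 and 4 tested genes. Over all tested genes 13.1% were higher and 12.2% lower, so absences in rows this short lie near those shares.

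Markers of other cell types were measured beside these genes. Each summed signal is over the tested markers of a list that gave a value on all 4 arrays, given first for STMN1-/- and then for STMN1+/+ MEFs. Of 10 tested fibroblast markers, 6 were higher and 1 lower, and their summed signal was 2158860.0 to 3952060.0 in STMN1-/- and 2916790.0 to 3411620.0 in STMN1+/+ MEFs. S100a4 gave the largest part of that sum (1342200 and 2050400) and had no call, its sign changing with dye (log2 ratios -1.54, -1.38, 0.08 and 0.38). Of 8 tested adipocyte markers, 5 were lower, and the summed signals did not overlap (16670.2 to 20259 and 27479.7 to 29233). Of these 5, Adipoq and Cfd were well above background in STMN1+/+ MEFs only and entered the test through that genotype. All 6 tested epithelial markers were lower (46282 to 53260.1 and 60605 to 68110.3), and Epcam was dim in both genotypes. Cdh1 and Cldn4 likewise entered the test only through STMN1+/+ MEFs, so their part in that count is no separate support. Of 5 tested osteoclast markers, 3 were higher (59378 to 63079 and 31743 to 35258), but the defining genes Calcr, Atp6v0d2 and Dcstamp were dim. Of 9 tested macrophage markers, 2 were higher and 2 lower (132733 to 154709 and 158505 to 180237), and Itgam was dim. Most of the macrophage sum was Lyz2 (129200.0 and 151406), which had no call, while Aif1 was 2.00 fold higher and Csf1r 1.21 fold higher. Most of the osteoclast sum was Itgb3 (42404 and 23627) and Ctsk (15672 and 7044), while Acp5 and Oscar had no call (log2 ratios 0.10 and -0.004). Muscle markers (3 of 7 higher, 1 lower, 63028 to 86516 and 62627 to 80093) and endothelial markers (2 of 5 higher, 1 lower, 3059 to 3320.0 and 2863 to 3389) overlapped in summed signal, with Pecam1 and Cdh5 dim. The part of these differences in the results for the 10 genes was not tested.

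Of the Stmn1 probes, A_52_P319161 was 4.46 fold lower in STMN1-/- MEFs (5976 and 26638) and A_51_P495641 was 1.31 fold lower (170220.0 and 223762). The study states that its Stmn1 probe also matches a region of another chromosome. Citing earlier work, it adds that STMN1-/- MEFs lack STMN1 mRNA by qRT-PCR and the protein by western blotting. Per array, 24808 to 26029 probes were well above background in a channel, 0 spots were saturated and the median log2 ratio was -0.01 to 0.00. Log2 ratios of the probes that passed the dim filter correlated at r = 0.69 and 0.70 within a dye orientation and at 0.44 to 0.49 across orientations.

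**Figure D4:**
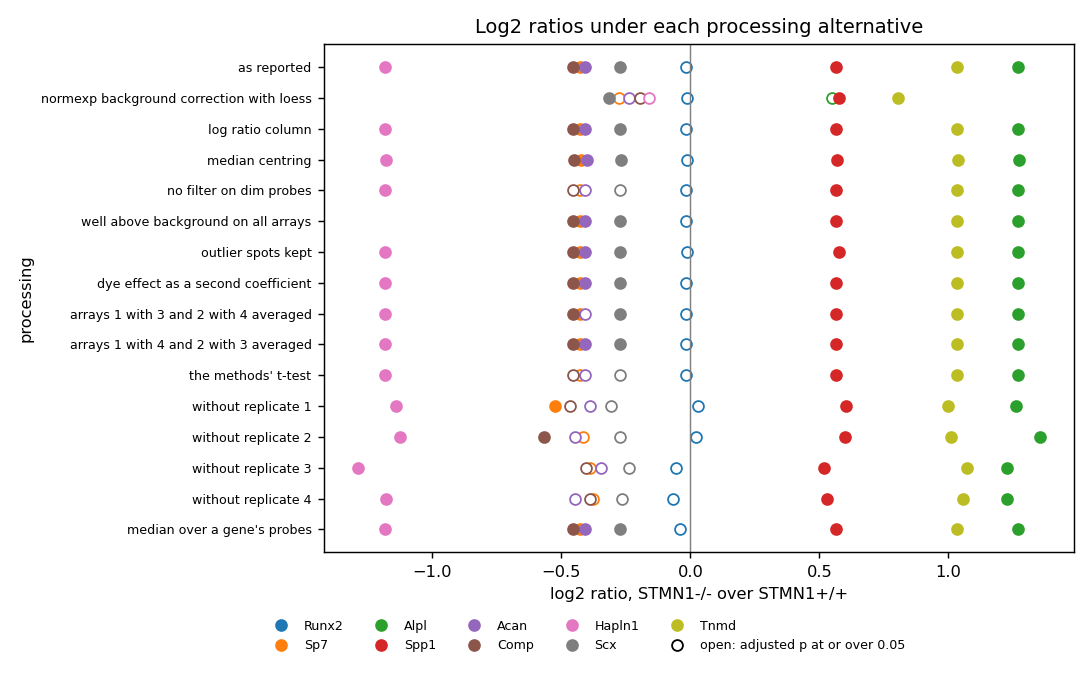
Log2 ratio (x axis) of the 9 tested genes as reported and under 15 processing alternatives (y axis), with open points where the adjusted p was at or over 0.05. The points of Spp1 and Tnmd are filled in every row, those of Alpl and Hapln1 move toward 0 with normexp correction, and those of Sp7, Acan, Comp and Scx open in several rows without moving across 0. Rows that change only the filter, the SE or the adjustment keep the same ratios by construction. Hapln1 has no point under the filter for all arrays, which removed it.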

How the data were processed

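RNA of STMN1-/- and STMN1+/+ MEFs was hybridised together on 4 arrays, 2 in each dye orientation. The deposited intensity values come from Feature Extraction 9.5.3.1, run by the authors per the file headers. It subtracted background, normalized dyes by LOWESS and replaced dim spots by surrogate values. The deposited log10 values are the ratio of Cy5 over Cy3 signals from the same program. The log2 values in a deposited list of 7090 probes were made by the authors in GeneSpring and entered only as an alternative, and the list's columns name no array. A shorter deposited list, made by fold change, was not used.

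Here the log2 ratio of STMN1-/- over STMN1+/+ processed signals was taken per array by the dye labels. Control and outlier spots were left out, spots of a probe were averaged, and of 41174 probes 27759 were kept for being well above background in a channel of 1 or more arrays (27724 with a value). The test was limma 3.58.1 (R 4.3.3), against a ratio of 0. Genes were named through RefSeq accessions (22951 probes), symbols (6659) and synonyms (3109). Only 1489 probes kept the array file's name alone, and 6966 have none. The number of arrays limits the precision. Tested on simulated data of 26607 probes, limma recovered 22% of 1.5 fold and 72% of 2 fold changes, 50 of each, and 0% of 1.2 fold changes. Only 50 probes were changed at each fold there, with independent noise, whereas 22.3% of probes were called in the data. The adjustment was thus stricter in the simulation, and its recoveries do not carry over to the data.

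The 10 genes and all lists were chosen with earlier results of these data known. In each list, up to 4 called genes with the largest absolute ratio and the defining genes Sox9, Col2a1, Col10a1, Bglap, Mkx and Dmp1 are named. The arrays share 1 slide and 1 scan. Alternatives were median centring, the log10 ratio column, loess after normexp (offset 50), no or a stricter dim filter, outlier spots kept, a dye coefficient, either pairing of arrays, the methods' t-test, each array left out, the median over a gene's probes and the deposited log2 list. The means of each dye orientation alone were added after seeing the data. Probe coordinates are those of build mm7 in the array files, and promoters are RefSeq's in GRCm38.p6. Probe cross-matches were not analysed here. The genes with ratios nearest to those of Acan are not reported here.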

Additional observations from a re-analysis of the deposited data

Results flagged for a closer look

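Of the 11 tested probes of the 10 genes, 0 had an array standing apart from the other 3 by Dixon's test.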

How the results depend on the processing

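None of the 9 tested genes changed direction under the 15 alternatives (14 for Hapln1, which the stricter filter removed), except that the Runx2 ratio, which had no call throughout, lay on either side of 0. Several alternatives could not turn a direction. Another dim filter, the dye coefficient, the array pairings and the t-test leave the mean ratio of these genes as it is. Ratios could move with normexp and loess or when an array was left out. Spp1 and Tnmd kept their calls under each of the 15 alternatives, at log2 ratios of 0.52 to 0.60 and 0.80 to 1.07. Alpl and Hapln1 lost theirs with normexp and loess alone. Sp7 lost its call under 6 alternatives, Acan under 8, Comp under 6 and Scx under 6. Normexp left 2 of the 10 genes higher and 1 lower, no dim filter 1 lower, and the methods' t-test with Benjamini-Hochberg adjustment 1 lower, the cause not tested. Among other skeletal genes normexp left 15 higher and 5 lower, no dim filter 11 lower and the t-test 10 lower. Over all probes the counts were 990 higher and 1143 lower with normexp, 1967 and 1871 with no dim filter, 1975 and 1882 with the t-test, and 5357 and 5354 with a dye coefficient. Leaving out 1 array, which unbalances the dyes, left 3 of the 10 genes higher and 1 to 2 lower, 17 to 19 other skeletal genes higher and 10 to 12 lower, and 1494 to 1698 probes higher and 1383 to 1605 lower. In the deposited log2 list, the 6 of the 10 genes it holds had the same direction. Their mean ratios there equalled those reported here, except for Spp1 (0.574 against 0.563). The list comes from the same arrays and holds probes that passed the authors' test, so it is no separate support. Each array held both genotypes as 1 ratio, so the main test already compared them within arrays. No other pairing was possible because no groups share replicate numbers. Averaging arrays as dye-swap pairs is another matter, and 1 with 3 and 2 with 4 ended the Acan call (limma adjusted p = 0.0601). In simulation limma recovered 0% of 1.2 fold changes, but far fewer probes were changed there than were called here, so that value does not apply directly. Dim probes such as Hapln1 and Ibsp carry little signal over background.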
